A study of Mus musculus with 7 samples.

Results

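The genes described here are the D-type cyclins Ccnd1, Ccnd2 and Ccnd3, their kinase partners Cdk4 and Cdk6, the kinase inhibitors Cdkn1a, Cdkn1b and Cdkn2c, and the retinoblastoma gene Rb1. Every probe set annotated to 1 of these 9 genes alone was taken, which gave 21 of the 22626 probe sets tested. RNA came from MN9D cells, a mouse dopaminergic line made by fusing embryonic midbrain cells with neuroblastoma cells, and was hybridised to Affymetrix mouse 430A 2.0 arrays, 1 array per sample. One group, with 4 arrays, is labelled as overexpressing the alpha and beta chains of mouse hemoglobin, and the other, with 3 arrays, carried an empty vector. A further control array was hybridised and left out by the submitters because of its quality. The sources used here do not name the vectors' promoter or the time in culture, nor whether the cells were single clones or pools. The design text names the effect of globin expression on these cells as the question, which the comparison of the 2 groups addresses.

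The deposited values are RMA expression values on the log2 scale, with array medians of 8.90 to 8.94. Nothing in the labels ties the replicates to separate cultures, and p-values therefore reflect the array-to-array spread alone, part or all of which may be technical. As a check of the labels, 3 probe sets shared by Hba-a1 and Hba-a2 were 35.8-fold to 142-fold higher in the arrays labelled as overexpressing globin. Of 3 probe sets for adult beta-globin, 1 passed, with a log2 difference of 0.34, and the 2 probe sets for 1 alpha-globin gene alone did not pass. No probe set of the other globin genes Hbb-y, Hbb-bh1 and Hba-x passed. The arrays are therefore called globin-labelled. Of 8 dopaminergic markers, Th, the first enzyme of dopamine synthesis, stood at percentile 87.8 of all probe sets in the empty vector arrays, while the dopamine transporter gene Slc6a3, at percentile 19.3, and the midbrain gene En1, at percentile 0.261, lay at the dim end. Th fell by 0.70 and Ddc, the next enzyme of that pathway, fell by 0.22 in the globin-labelled arrays, and the other 6 did not pass at their brightest probe set. A dimmer probe set of Nr4a2, a transcription factor of dopaminergic neurons, fell by 0.28 (limma adjusted p = 0.00393). The summed linear signal of the 8 ran from 4968 to 5551 in empty vector and from 3712 to 3904 in globin-labelled arrays. Bright genes weigh most in such a sum, and Th and Ddc were the brightest of the 8. The sum is therefore no measure of the other 6, and its part in the results was not tested. In RNA of whole cultures, fewer cells of a type or cycle phase and less RNA per cell cannot be told apart.

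In G1 of the cell cycle, D-type cyclins rise with growth signals and activate Cdk4 and Cdk6, which phosphorylate the retinoblastoma protein and so release E2F transcription factors that switch on genes of DNA replication. Cdkn2c (p18INK4c) binds Cdk4 and Cdk6 and blocks cyclin binding, whereas Cdkn1a (p21) and Cdkn1b (p27) bind cyclin and kinase together and inhibit mainly Cdk2 complexes. In neural precursors the loss of D cyclins and the accumulation of p27 accompany exit from the cycle.

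The D cyclin genes Ccnd1 and Ccnd2 were higher in the globin-labelled arrays and the inhibitor genes Cdkn1a and Cdkn2c were lower, while Cdk4 did not pass the test. Cdkn1b fell by 1.14 on the log2 scale on one probe set and fell by 0.16 on the other, whose call was lost when any 1 array was left out. Of the 21 probe sets, 11 rose and 6 fell (limma, Benjamini-Hochberg adjusted p under 0.05 over all 22626 probe sets), with 4 not passing. Over all probe sets 39.5% passed, 18.3% higher and 21.2% lower, which is the background for these counts. Since 7 of the 11 risen probe sets belong to Ccnd2, they are not independent. The calls of Rb1 and of Cdkn1b 1434045_at, both among these, were lost in 8 and 11 of 13 other settings. Counted with 1 probe set per gene, the one with the highest mean over the 7 arrays, 3 of the 9 genes rose and 4 fell, against 40.7% of 12393 genes that changed, 20.6% higher and 20.1% lower, and those 2 probe sets stand for Rb1 and Cdkn1b in this count. The median log2 difference of the 9 genes was -0.05, against 0.02 over all genes. At 18 of the 21 probe sets every array of one group lay beyond every array of the other, against 43.5% of all probe sets. Each change is the globin-labelled mean (n = 4) less the empty vector mean (n = 3) on the log2 scale, with limma's standard error after ± wherever no SD is named.

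**Figure D1:**
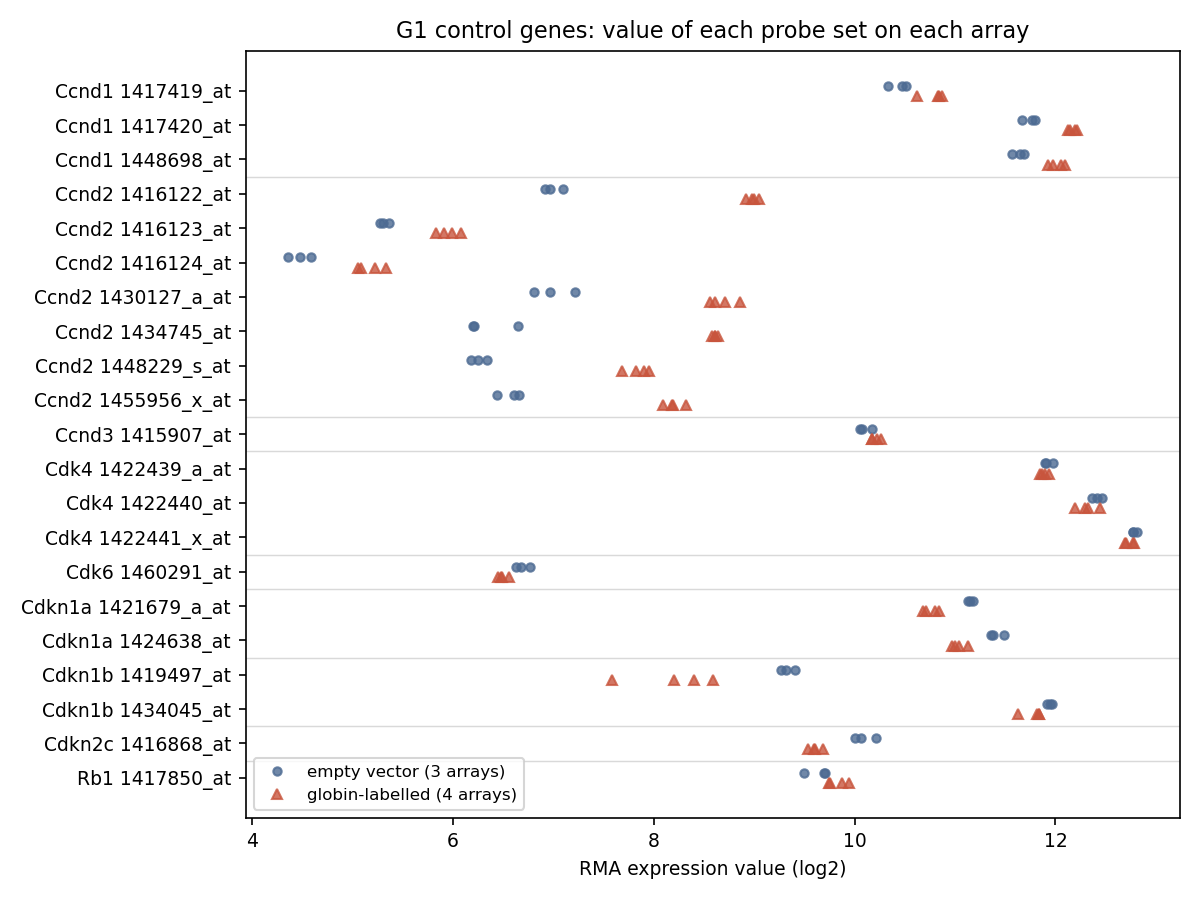
RMA expression value (log2, horizontal axis) of each of the 21 probe sets on each array, circles for the 3 empty vector arrays and triangles for the 4 globin-labelled arrays. The groups are apart by the widest margin for Ccnd2, where 1434745_at reads 6.20 to 6.65 in empty vector arrays and 8.58 to 8.64 in globin-labelled arrays, and they mix for Cdk4.

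Ccnd2, the D cyclin typical of dividing neural progenitors, had the largest change of the set and rose on all 7 of its probe sets. On 1434745_at the empty vector arrays read 6.21, 6.65 and 6.20 and the globin-labelled arrays 8.61, 8.58, 8.64 and 8.61. The lowest globin-labelled array was therefore far above the highest empty vector array, and the 4 arrays lay close together. The difference was 2.26 ± 0.10, a 4.78-fold change of signal (limma adjusted p = 4.07e-07), and it held place 30 among the rises of all 22626 probe sets. For 1416122_at, the Ccnd2 probe set with the highest mean, the values were 6.97, 6.91 and 7.10 in empty vector and 8.92, 8.98, 9.04 and 9.002 in globin-labelled arrays. This was a rise of 1.99 ± 0.05, or 3.98-fold (limma adjusted p = 2.08e-08), again with no overlap.

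The other Ccnd2 probe sets rose by less. 1430127_a_at, 1455956_x_at and 1448229_s_at rose by 1.69 ± 0.10, 1.63 ± 0.07 and 1.59 ± 0.07. The smallest rises were those of 1416124_at, by 0.70 ± 0.08 from 4.48 to 5.17, and 1416123_at, by 0.64 ± 0.06 from 5.31 to 5.95. This last pair stood at percentiles 3.28 and 9.48 of all probe sets in the empty vector arrays, and the other 5 between 18.5 and 27.4, so that all Ccnd2 signals of the empty vector cells came from the dim part of the arrays' range. The change of 1416122_at exceeded that of 1416123_at by 1.36 (two-sided exact permutation p = 0.0286, the smallest that 35 splits allow, adjusted over 2 such pairs 0.0571), a comparison chosen after the values were seen. Over all 22626 probe sets 0.791% were called and at least 2-fold higher.

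**Figure D2:**
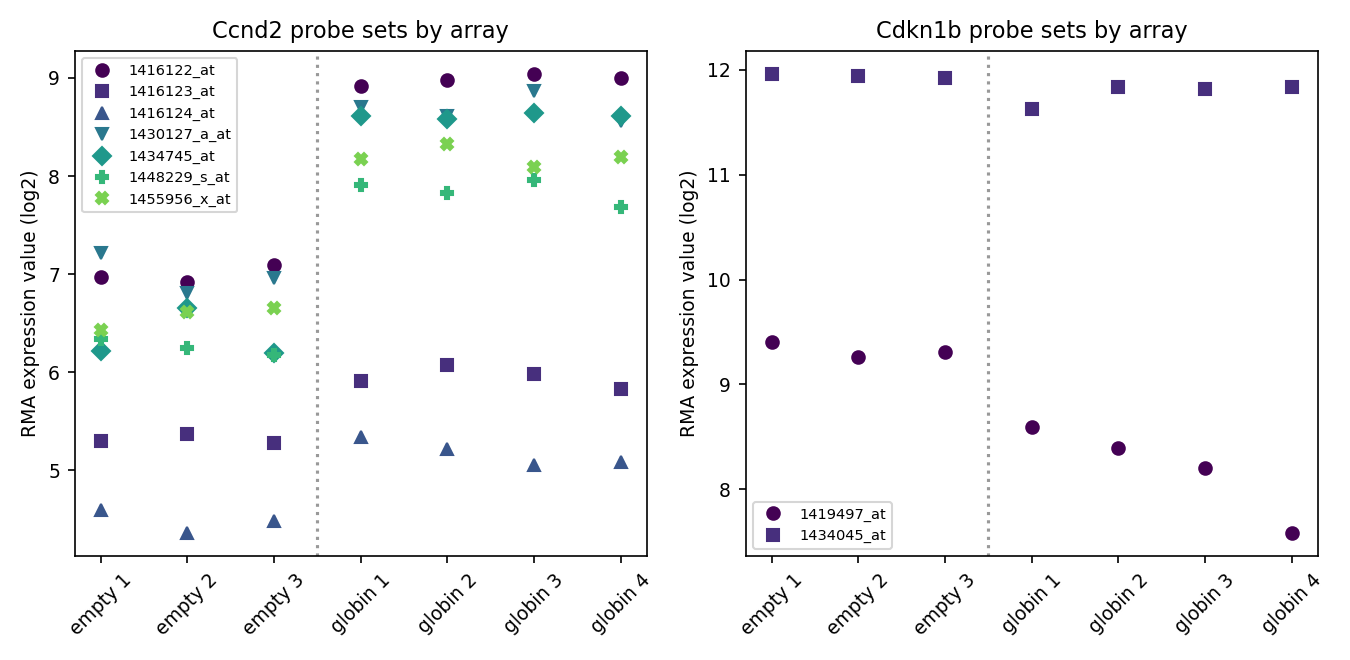
RMA expression value (log2, vertical axis) of the 7 probe sets of Ccnd2 (left) and the 2 of Cdkn1b (right) on each array, with empty vector arrays left of the dotted line and 1 symbol per probe set. All 7 Ccnd2 probe sets are higher on the right of the line, and the 4 globin-labelled values of Cdkn1b 1419497_at spread from 7.58 to 8.59 while those of 1434045_at lie between 11.63 and 11.84.

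Ccnd1, the D cyclin induced by growth factor signalling in many cell types, rose on all 3 of its probe sets, which lay in the bright part of the range. On 1417420_at the empty vector arrays read 11.80, 11.66 and 11.76 and the globin-labelled arrays 12.14, 12.12, 12.19 and 12.21. The groups were apart, with a rise of 0.42 ± 0.05, or 1.34-fold (limma adjusted p = 1.01e-04). The other Ccnd1 probe sets agreed in direction and nearly in size, with 0.38 ± 0.05 for 1448698_at and 0.35 ± 0.07 for 1417419_at, where globin-labelled array 4 read 10.62 and the other 3 read 10.83 to 10.87.

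Ccnd3, the D cyclin prominent in lymphoid and differentiating cells, had 1 probe set, at 10.06, 10.08 and 10.17 in empty vector and 10.22, 10.26, 10.17 and 10.17 in globin-labelled arrays. The groups met at 10.169 and 10.1702, so that they were separated by a margin far below the spread within either group. The difference of 0.11 ± 0.04 did not pass (95% confidence interval 0.00 to 0.21, limma adjusted p = 0.0932), and it did pass after quantile normalisation (limma adjusted p = 0.0320) and with empty vector array 3 left out (limma adjusted p = 0.0478).

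The 3 D cyclins were set against each other within each array, with the highest-mean probe set of each gene. The log2 change of Ccnd2 exceeded that of Ccnd3 by 1.89 (95% interval 1.75 to 2.03) and that of Ccnd1 by 1.57 on the log2 scale (Ccnd1 minus Ccnd2, -1.57, 95% interval -1.68 to -1.45). The change of Ccnd1 exceeded that of Ccnd3 by 0.32 (95% interval 0.15 to 0.49). In each of these 3 pairs the groups were fully apart, with a two-sided exact permutation p = 0.0286, the smallest that 35 splits allow. Adjusted over the 7 pairs compared among cyclins, kinases and inhibitors this became 0.050, which does not lie under the threshold.

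**Figure D3:**
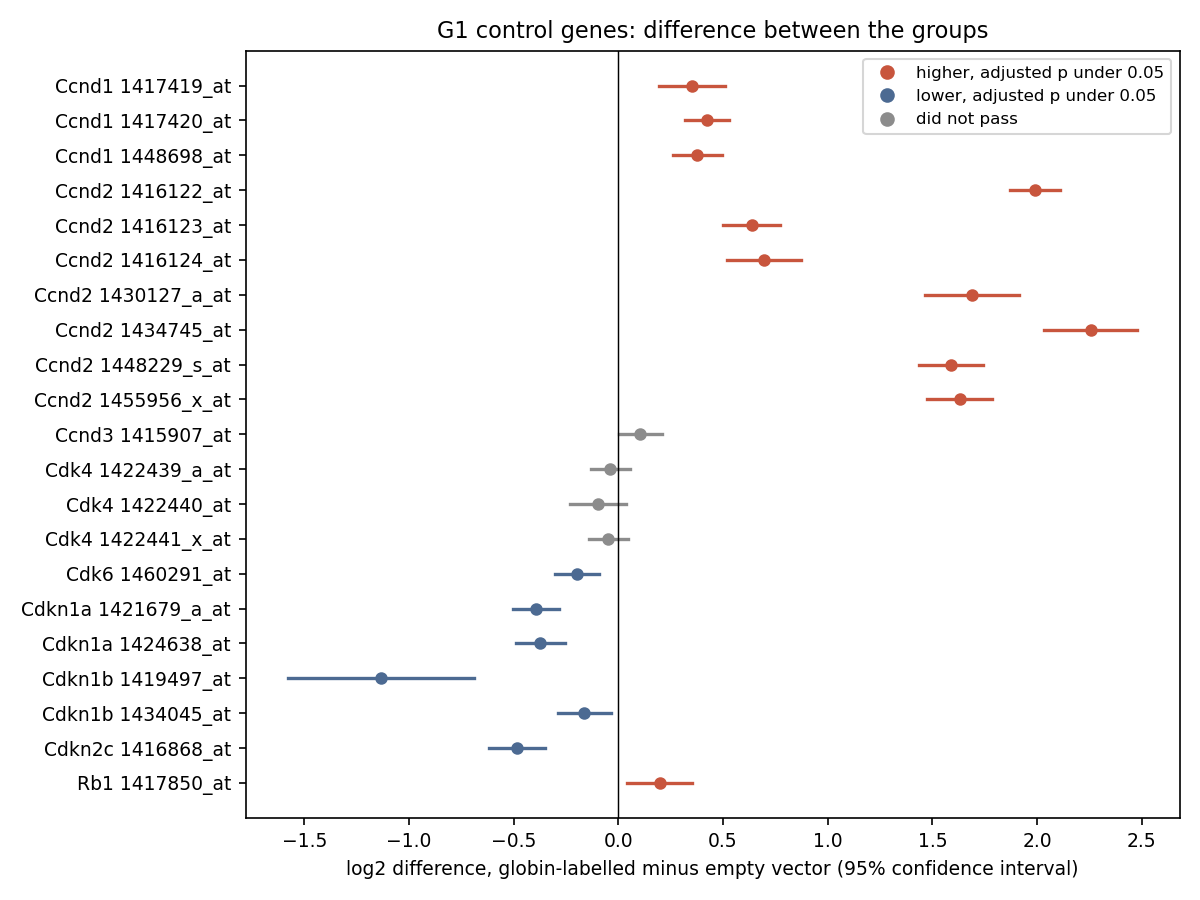
Log2 difference, globin-labelled minus empty vector (horizontal axis), of each of the 21 probe sets, with bars for limma's 95% confidence interval. Ccnd2 1434745_at is farthest to the right at 2.26 and Cdkn1b 1419497_at farthest to the left at -1.14, and the intervals of the 3 Cdk4 probe sets include 0.

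Cdk4, the kinase partner of the D cyclins in most cells, did not pass on any of its 3 probe sets. On 1422441_x_at the empty vector arrays read 12.77, 12.81 and 12.77 and the globin-labelled arrays 12.79, 12.77, 12.69 and 12.71. The values overlapped, with a difference of -0.05 ± 0.04 (95% confidence interval -0.14 to 0.05, limma adjusted p = 0.398). For 1422439_a_at and 1422440_at the differences were -0.04 ± 0.04 and -0.10 ± 0.06, and the widest interval, that of 1422440_at, ran from -0.23 to 0.04. An x_at probe set, in the maker's naming, holds probes that may also match other transcripts, and here it did not stand apart from the remaining pair.

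Cdk6, the second D cyclin kinase, had 1 probe set in the dim part of the range, at percentile 23.5 in the empty vector arrays. It read 6.76, 6.63 and 6.67 in empty vector and 6.44, 6.48, 6.49 and 6.55 in globin-labelled arrays, with no overlap. The fall was small, -0.20 ± 0.05 or 1.15-fold (limma adjusted p = 0.00843). The changes of Cdk4 and Cdk6 differed by 0.15 (95% interval -0.02 to 0.32, two-sided exact permutation p = 0.114, adjusted over 7 pairs 0.133).

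Sequence upstream of the start sites of Cdk4 and of the inhibitor genes is shown to set the letters known for these genes' regulators beside their values. The 250 bases before each start are from RefSeq, build GRCm38.p6, 5′ to 3′ on the gene's own strand. Of the 9 genes, 6 matched the sequence table, with 9 start sites. Ccnd1, Ccnd2 and Rb1 had no window and were not searched. The first window, of Cdk4, is chr10:127063285-127063534 on the plus strand, with capitals for the E-box CACGTG, the letters bound by Myc and Max.
Cdk4: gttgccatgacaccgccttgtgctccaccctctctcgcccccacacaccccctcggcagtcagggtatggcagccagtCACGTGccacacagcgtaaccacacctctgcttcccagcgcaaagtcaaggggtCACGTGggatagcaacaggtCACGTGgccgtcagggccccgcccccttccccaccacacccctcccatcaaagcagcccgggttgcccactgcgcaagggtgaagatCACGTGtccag
It holds 4 matches, and 6.02% of 32851 windows of that length hold at least 1. The window of Cdk6, which fell by 0.20, is not printed and holds 1 match. The other windows of these genes hold none. Of the Myc family genes, Myc rose by 0.21 ± 0.06 (limma adjusted p = 0.0231) and Mycl by 1.501 ± 0.09 on the brightest of its 3 probe sets, all of which rose. Mycn rose by 0.40 ± 0.05 on its brightest probe set alone. Max, their shared partner, did not pass at -0.23 (limma adjusted p = 0.0551). A match of letters is a description and not a binding site.

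Cdkn1a, which encodes p21, a target of p53 that holds cells in G1 after damage, fell on both of its probe sets. On 1424638_at the empty vector arrays read 11.36, 11.38 and 11.48 and the globin-labelled arrays 11.13, 10.97, 11.04 and 10.999. On 1421679_a_at they read 11.15, 11.13 and 11.18 against 10.80, 10.84, 10.71 and 10.68. Every globin-labelled array lay below every empty vector array on both, and the probe sets differed little, with -0.37 ± 0.05 and -0.39 ± 0.05 (limma adjusted p = 4.26e-04 and 2.01e-04), or about 1.30-fold and 1.31-fold. Mdm2, another p53 target that also marks p53 for degradation, fell on both of its probe sets, by 0.31 ± 0.05 on the brighter one (limma adjusted p = 5.73e-04).

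Cdkn1a has a pair of start sites in the table, on the plus strand at chr17:29090729-29090978 and chr17:29093519-29093768, and capitals mark 2 copies of the p53 half-site consensus, 12 bases apart.
Cdkn1a upstream start: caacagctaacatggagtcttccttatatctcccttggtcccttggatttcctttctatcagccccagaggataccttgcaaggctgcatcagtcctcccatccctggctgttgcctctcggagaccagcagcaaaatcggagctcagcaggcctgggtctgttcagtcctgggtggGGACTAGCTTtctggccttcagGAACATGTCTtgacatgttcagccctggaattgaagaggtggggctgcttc
Cdkn1a downstream start: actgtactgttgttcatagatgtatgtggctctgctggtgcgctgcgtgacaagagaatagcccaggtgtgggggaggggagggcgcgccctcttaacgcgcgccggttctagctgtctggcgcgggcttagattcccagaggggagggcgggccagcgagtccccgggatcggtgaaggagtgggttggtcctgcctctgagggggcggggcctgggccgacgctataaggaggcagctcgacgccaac
The search allowed at most 13 bases between the half-sites and read the palindromic consensus on both strands. Only exact copies were marked. The letters tgacatgttc, directly after the second marked copy, miss the consensus at their first base alone and so stayed unmarked. The search therefore cannot say which of these half-sites p53 binds. The upstream window was 1 of 21 matches, or 0.0639%, among the 32851 windows, and the downstream window held none. The p53 gene itself was not analysed here.

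Cdkn1b, which encodes p27, the inhibitor whose accumulation accompanies cell cycle exit, had 2 probe sets that differed in level, in spread and in the size of the fall. On 1419497_at the empty vector arrays read 9.41, 9.26 and 9.31 and the globin-labelled arrays 8.59, 8.40, 8.20 and 7.58. All 4 lay below the empty vector arrays but were widely spread, with an SD of 0.44 (n = 4) against 0.07 (n = 3), and array 4 was lowest. The fall was -1.14 ± 0.20, or 2.20-fold (limma adjusted p = 0.00147), and without globin-labelled array 4 it was -0.93. Over all probe sets 0.535% were called and at least 2-fold lower.

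On the brighter Cdkn1b probe set, 1434045_at, the values were 11.96, 11.94 and 11.92 against 11.63, 11.84, 11.81 and 11.83. Here array 1 was the lowest of the globin-labelled arrays, whereas on 1419497_at it was the highest of the 4. The difference was -0.16 ± 0.06 (limma adjusted p = 0.0485), a call that only just passed and that was lost in 11 of 13 other settings, among them the omission of any 1 of the 7 arrays (limma adjusted p from 0.0522 to 0.122). The fall on 1419497_at exceeded that on 1434045_at by 0.97 (two-sided exact permutation p = 0.0571, adjusted over 2 such pairs 0.0571), a comparison chosen after the values were seen. The probe sets thus give 2 sizes for the fall of Cdkn1b, 2.20-fold and 1.12-fold.

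The window before the Cdkn1b start, chr6:134920151-134920400 on the plus strand, is printed with capitals for the CCAAT box, the letters bound by NF-Y.
Cdkn1b: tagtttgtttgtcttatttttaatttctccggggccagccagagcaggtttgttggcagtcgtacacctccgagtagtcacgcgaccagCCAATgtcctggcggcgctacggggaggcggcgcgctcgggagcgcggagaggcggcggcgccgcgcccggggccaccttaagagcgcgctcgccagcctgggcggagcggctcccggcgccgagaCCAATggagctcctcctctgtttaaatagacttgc
It holds 2 matches of CCAAT, and 33.8% of all windows hold at least 1. No match to the forkhead letters TGTTTAC, searched on both strands because forkhead factors are known regulators of p27, is in this window, where 3.17% of windows have one. Of the forkhead genes, Foxo1, Foxo3 and Foxo4 did not pass on any probe set.

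Cdkn2c, which encodes p18INK4c, a Cdk4 and Cdk6 inhibitor active in dividing neural precursors, fell on its 1 probe set. The empty vector arrays read 10.21, 9.999 and 10.06 and the globin-labelled arrays 9.53, 9.59, 9.60 and 9.69. The groups were well apart, with a fall of -0.49 ± 0.06, or 1.40-fold (limma adjusted p = 1.83e-04). With the highest-mean probe set of each gene, Cdkn2c fell more than Cdkn1b by 0.32 (95% interval 0.17 to 0.48, two-sided exact permutation p = 0.0286, adjusted over 7 pairs 0.050). That order turned to -0.16 when the probe sets of a gene were averaged. Cdkn1a against Cdkn2c differed by 0.11 (95% interval -0.15 to 0.37, two-sided exact permutation p = 0.400, adjusted 0.400). Cdkn1a against Cdkn1b differed by -0.21 (95% interval -0.49 to 0.07, two-sided exact permutation p = 0.114, adjusted 0.133), which turned to 0.27 with averaged probe sets.

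The outer of the 2 start sites of Cdkn2c, chr4:109666757-109667006 on the minus strand, is printed with capitals for the GC box GGGCGG, the letters bound by Sp1.
Cdkn2c: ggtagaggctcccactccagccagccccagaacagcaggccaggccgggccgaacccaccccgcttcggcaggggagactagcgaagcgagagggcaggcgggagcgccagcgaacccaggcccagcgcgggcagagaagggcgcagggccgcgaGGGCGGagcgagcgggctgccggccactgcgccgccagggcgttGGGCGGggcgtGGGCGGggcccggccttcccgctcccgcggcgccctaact
It holds 3 matches, and 32.7% of all windows hold at least 1. The window of the other Cdkn2c start site, not printed, holds none. None of the 9 windows, which cover 6 of the genes, holds the E2F letters TTTCCCGC, TTTCGCGC, TTTGCCGC or TTTGGCGC on either strand. Over all windows 1.86% do, a share at which 9 windows would seldom hold a match. Ccnd1, Ccnd2 and Rb1 were not searched.

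Rb1, the pocket protein that D cyclin kinases phosphorylate, read 9.70, 9.70 and 9.50 in empty vector and 9.74, 9.76, 9.95 and 9.88 in globin-labelled arrays. The groups were apart by a narrow margin, and the rise of 0.20 ± 0.07 just passed (limma adjusted p = 0.0483). It no longer passed in 8 of 13 other settings, among them the omission of any array but globin-labelled array 1 (limma adjusted p from 0.0535 to 0.169). The same value was not past the threshold without both empty vector array 1 and globin-labelled array 4 (limma adjusted p = 0.116), the pair at one end of the second principal component, which held 5.96% of the variance. The calls of Ccnd1, Ccnd2, Cdk6, Cdkn1a, Cdkn2c and Cdkn1b 1419497_at were kept in each setting that tested them.

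Other genes of the G1/S pathway were followed in 6 lists with 75 measured genes, at 1 probe set per gene. Of these, 30 rose and 18 fell, where 20.6% of all genes rose and 20.1% fell, and the median difference was 0.06 against 0.02 over all genes. Of 11 other cyclins, kinases and activators 5 rose and 2 fell, with a median of 0.07. Ccne1, the cyclin that activates Cdk2 at the end of G1, rose by 0.44 ± 0.05 (limma adjusted p = 8.09e-05), and Cdk1, the mitotic kinase, rose by 0.43 ± 0.06 (limma adjusted p = 2.53e-04). The subunits of the kinase that activates Cdks moved apart, with Mnat1 higher by 0.20 ± 0.04 and Ccnh lower on all 3 of its probe sets, by 0.23 ± 0.04 on the brightest. Cdc37, the chaperone of Cdk4, did not pass, at 0.07.

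Among the 4 other inhibitors 1 rose and 1 fell, where 20.6% of all genes rose and 20.1% fell. Cdkn2b, the p15 gene, rose by 0.20 ± 0.05 (limma adjusted p = 0.0129), and Cdkn2a, which encodes p16 and the Mdm2 antagonist Arf, fell by 0.35 ± 0.09 (limma adjusted p = 0.0150). Cdkn2d, the p19 gene, did not pass at -0.03. Cdkn2b and Cdkn2a thus moved apart, and 1 gene each way among 4 is near the shares over all genes.

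Of 13 measured pocket proteins, E2F factors and partners 1 rose and 6 fell, with a median of -0.03. E2f1, an activating E2F that is itself an E2F target, rose on both of its probe sets, by 0.41 ± 0.05 on the brighter one (limma adjusted p = 1.65e-04). E2f4 and E2f6, repressor members of the family, fell by 0.22 ± 0.05 and 0.17 ± 0.04, and the activator E2f3 by 0.21 ± 0.05. Rbbp4, a chromatin partner of Rb1, did not pass, at 0.09.

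Of 11 genes for the turnover of D cyclins and p27, 4 rose and 4 fell, with a median of 0.00. Gsk3b, a kinase that marks cyclin D1 for degradation, fell by 0.49 ± 0.05 (limma adjusted p = 1.04e-04). Fbxo4 and Fbxo31, ubiquitin ligase subunits reported to act on cyclin D1, moved apart, with a fall of -0.36 ± 0.05 and a rise of 0.36 ± 0.05. Uhmk1, a kinase that phosphorylates p27, fell by 0.29 ± 0.04 on its brightest probe set, while 1 of its 4 probe sets did not pass. Cks1b, the cofactor for p27 destruction, rose by 0.22 ± 0.05, and Skp2, the ligase subunit it works with and a gene singled out after its values were seen, rose on 5 of 6 probe sets, by 0.34 ± 0.05 on the brightest.

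Among 13 transcription regulators of these genes 5 rose and 2 fell, with a median of 0.11. Mycl rose most, by 1.501 ± 0.09 or 2.83-fold (limma adjusted p = 3.05e-06). Mycn, the Myc gene of neuroblastoma, rose by 0.40 ± 0.05 on the brightest of its probe sets (limma adjusted p = 1.93e-04), and its other pair did not pass. Jun, an activator of Ccnd1, fell by 0.55 ± 0.06 (limma adjusted p = 7.64e-05), and its part in the Ccnd1 values was not tested.

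Of 23 E2F target genes of the G1/S transition 14 rose and 3 fell, with a median of 0.21. Ung, a uracil glycosylase, rose by 1.19 ± 0.05, Rrm2, a subunit of ribonucleotide reductase, by 1.0004 ± 0.08, and Mcm5, of the replicative helicase, by 0.44 ± 0.04. Thymidine kinase, Tk1, fell by 0.58 ± 0.04 and Pcna, the polymerase clamp, fell by 0.21 ± 0.04 (limma adjusted p = 1.31e-05 and 0.00291). Over all genes 20.6% rose and 20.1% fell, with a median of 0.02. The called E2F target genes were thus mostly higher, with Tk1 and Pcna among the 3 that fell.

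**Figure D4:**
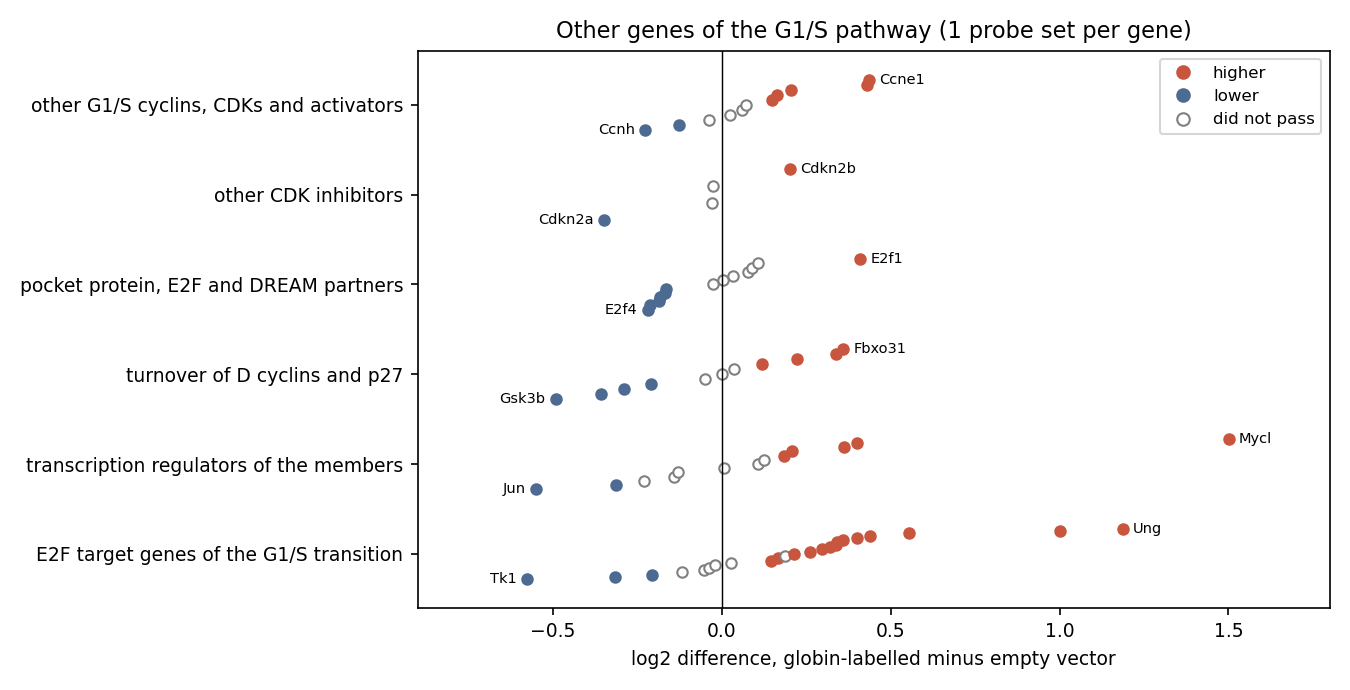
Log2 difference, globin-labelled minus empty vector (horizontal axis), of 75 other genes of the G1/S pathway in 6 lists, 1 point per gene, filled where the adjusted p was under 0.05; the outermost gene of each list is named. Mycl, at 1.501, and Ung, at 1.19, are farthest to the right and Tk1, at -0.58, farthest to the left.

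Markers of other cell types were read beside these results. Of 6 fibroblast, 5 astrocyte, 4 oligodendrocyte and 3 erythroid markers, at the brightest probe set of each gene, none passed (limma, with 0, 0, 1 and 0 at an unadjusted p under 0.05). A dimmer probe set of the fibroblast marker Pdgfra rose by 0.17 ± 0.05 (limma adjusted p = 0.0269), while its brighter one did not pass. Of 6 macrophage markers only Cd68, a lysosomal protein, fell, by 1.25 ± 0.09, and of 5 endothelial markers only Kdr fell, by 0.27 ± 0.08, and the other markers of these lists, which stood at percentiles 3.06 to 35.4 of all probe sets in the empty vector arrays, did not pass. The summed linear signal of the macrophage list ran from 642 to 676 in empty vector and from 488 to 572 in globin-labelled arrays, and that of the endothelial list from 444 to 463 and from 400.3 to 452. That of the oligodendrocyte list ran from 2019 to 2067 in empty vector and from 1942 to 2012 in globin-labelled arrays. Its brightest gene, Cnp, at percentile 76.4 in the empty vector arrays, did not pass, at -0.06. The sums of the fibroblast, astrocyte and erythroid lists overlapped between the groups. The part of these markers in the results was not tested.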

How the data were processed

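RNA of 7 samples of MN9D cells was measured on 1-colour Affymetrix arrays. The deposited log2 values are the submitters' own RMA output, per the submitters' processing notes, a method that corrects background, normalises between arrays and summarises the probes of a probe set; its software is not named in the sources used here. The deposited log2 values were used unchanged, all 7 columns. Of 22690 rows, 64 array controls were left out and 22626 probe sets tested; 20380 had 1 gene symbol in the platform annotation, 691 several and 1555 were unnamed here.

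The groups were compared with limma 3.58.1 in R 4.3.3 (lmFit and eBayes with a group term and nothing else, two-sided, Benjamini-Hochberg over all 22626, threshold 0.05), with 5 residual degrees of freedom. No filter on dim probe sets was used. The fit was tested on simulated data. Arrays carry no read depth, and their number limits the precision. Pairs of members were compared with exact permutation tests over 35 splits. The 95% intervals of those pairs rest on the spread within groups.

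Named were every probe set of the 9 genes and the globin genes. From each G1/S list, up to 4 called genes by smallest p and the brightest of the others were named. Each gene's highest-mean probe set stands for it. Max, Skp2, Foxo1, Foxo3 and Foxo4 were named outside this rule. Some list genes were not analysed here. The members and lists were chosen with earlier results of these data known. Alternatives were other array scalings, variance settings, a filter, a stricter threshold, averaged probe sets, a replicate block and the omission of arrays.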

Additional observations from a re-analysis of the deposited data

Results flagged for a closer look

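One of 21 groups of 4 globin-labelled arrays held an array far from the rest. On Cdkn1b 1434045_at globin-labelled array 1 read 11.63, where the other 3 read 11.81 to 11.84, a gap of 0.883 of the group's range, above the 95% critical value of Dixon's test for 4 samples. Chance gives such a gap in about 1 of 20 groups. Without that array the difference was -0.11 and did not pass (limma adjusted p = 0.0623).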

How the results depend on the processing

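Under the alternatives 9 to 12 of the 21 probe sets rose and 5 to 6 fell, against 11 and 6. At 1 probe set per gene 2 to 4 of the 9 genes rose and 3 to 4 fell. Of the probe sets called in the main comparison, Cdkn1b 1434045_at and Rb1 alone lost their call under a refit. Of the 75 genes in the wider lists, 18 fell in the main comparison, 10 at an adjusted p under 0.01 and 10 with the replicate block, which uses fewer arrays; leaving out 1 array gave 15 to 18. Replicate numbers did not pair the arrays: the deviations of same-numbered arrays correlated at -0.36, -0.30 and -0.14, and no array correlated best with its own number. With that block, which leaves out globin-labelled array 4, 2940 probe sets were higher and 3397 lower, against 4131 and 4800 in the main comparison. The same arrays without the block gave 3729 higher and 4302 lower. Quantile normalisation moved the Cdk4 and Cdk6 pair to 0.19 with no overlap, and as 5 pairs then had the smallest possible p, the adjusted exact permutation p became 0.0400 for these pairs (Ccnd1 minus Ccnd2 -1.55, Ccnd1 minus Ccnd3 0.29, Ccnd2 minus Ccnd3 1.84, Cdkn1b minus Cdkn2c 0.32); the cause was not tested. With the probe sets of a gene averaged, Cdkn1a minus Cdkn1b turned to 0.27 and Cdkn1b minus Cdkn2c to -0.16. With 1 array left out a pair cannot reach the threshold, so no p is given there. The 2 dimmest Ccnd2 probe sets and Cdk6 were not tested once the dimmest 25% were left out. Signal over background was not measured here, which limits folds at the dim end.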

Other observations

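Up to 5 measured genes nearest on either side of each gene on its chromosome, by the RefSeq order of GRCm38.p6, were read beside it at 1 probe set per gene. Over all genes 20.6% were higher and 20.1% lower. Around Ccnd2 2 of 10 rose and 0 fell, with a median log2 difference of 0.02, around Ccnd1 2 of 7 rose and 1 fell, with a median of 0.08, and around Ccnd3 1 of 10 rose and 0 fell, with a median of 0.0050. Around Cdk4, which did not pass, 5 of 10 rose and 0 fell, with a median of 0.18, and around Cdk6 0 of 5 rose and 3 fell, with a median of -0.23. Among the neighbours of the inhibitor gene Cdkn1a 4 of 10 rose and 2 fell, with a median of 0.02. For Cdkn1b these counts were 0 and 3 of 10, with a median of -0.08, and for Cdkn2c 2 and 5 of 10, with a median of -0.16. Around Rb1 4 of 10 rose and 0 fell, with a median of 0.10.

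By root mean square distance of centred log2 values over the 7 arrays, the genes most like Ccnd2 1434745_at were Nos1, Dkk1 and Deptor, at 0.099, 0.12 and 0.13. Those most like Cdkn1b 1419497_at were Bptf, Mbnl3 and Rufy2, at 0.12, 0.18 and 0.18, which fell by 1.18, fell by 1.08 and fell by 0.95.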
